A study of Mus musculus with 22 samples.

Results

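A set of 10 genes of heterochromatin formation is described here in mouse germinal vesicle (GV) oocytes that lack RNA interference (RNAi), the piRNA pathway or both. Setdb1, Ehmt1, Ehmt2, Suv39h2, Trim28, Atf7ip, Resf1, Cbx5, Morc3 and Hells were chosen by name as factors that silence retrotransposons in chromatin, and their symbols were matched to gene identifiers, which gave 10 of the 52636 genes of the count table. The question was whether the transcripts of chromatin silencers respond when the small RNA pathways are lost.

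Heterochromatin silencing acts on the DNA copy of a retrotransposon, whereas RNAi in the oocyte cuts its RNA and the piRNA pathway can do either. KRAB zinc finger proteins bind retrotransposon sequence and recruit TRIM28 (KAP1), a corepressor that brings in the histone H3 lysine 9 (H3K9) methyltransferase SETDB1. HP1 proteins such as CBX5 then bind methylated H3K9, and remodelling ATPases help to keep the chromatin closed and its DNA methylated.

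The study sequenced RNA from pools of GV oocytes of C57BL/6 mice in 2 runs, which were tested apart. The single-end run held 3 samples of wild type (Dicer WT/WT), 4 with both Dicer alleles ΔMT (Dicer ΔMT/ΔMT), 3 with both alleles SOM (Dicer SOM/SOM) and 1 heterozygote for ΔMT (Dicer ΔMT/WT), with no age in the labels; the methods give only a general age range for oocyte donors, which the labelled ages of the other run go beyond. The ΔMT allele lacks the main MT retrotransposon promoter from which oocytes make a short, highly active Dicer. The paper reports a further insertion in the same intron, MTA, that can also drive a short Dicer in ΔMT/ΔMT oocytes. SOM oocytes make only the full-length somatic Dicer. SOM is a modified allele of the Dicer gene itself, carried in every cell, and the mouse line goes back to 1 embryonic stem cell clone. The paired-end run held Mili DAH/WT, Dicer SOM/WT (control, n = 4, aged 36, 38, 10 and 17 weeks), Mili DAH/WT, Dicer SOM/SOM (RNAi mutant, n = 2, aged 17 and 13 weeks), Mili DAH/DAH, Dicer SOM/SOM (double mutant, n = 4, aged 40, 35, 11 and 11 weeks) and 1 Mili DAH/DAH, Dicer SOM/WT sample (piRNA mutant, aged 16 weeks). The DAH allele changes an amino acid of the catalytic site of MILI, and the paper describes the protein as still made but catalytically dead. Every animal of this run, controls included, carried at least 1 Mili DAH and 1 Dicer SOM allele. The study calls its samples biological replicates, and samples of different ages cannot come from 1 animal. For the other samples the labels name no animal, and their spread may be partly technical.

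Total counts ran from 6467844 (SOM/SOM replicate 3) to 90712420 per library. Dicer1 fell to 49.9 CPM (counts scaled to the library total, a share of a pooled library in which less RNA per oocyte and fewer oocytes with that RNA cannot be told apart) in Dicer SOM/SOM from 1020 in wild type, and to 57.7 in the double mutant from 640 in the controls (edgeR adjusted p = 3.67e-08 and 2.59e-09), whereas Piwil2, which encodes MILI, had a double mutant mean of 5.98 against 5.87 CPM and therefore does not check the Mili label. The 10 oocyte markers summed to 11035 to 13864 CPM in all libraries, the 10 granulosa or cumulus markers to 34.2 to 84.9 CPM, and the 8 blood and immune markers to 28.3 to 65 CPM, of which Ms4a1 made up 27.3 to 64.9 CPM. Of the 24 markers tested, 3 were called higher in Dicer SOM/SOM than in wild type (Nobox, Fshr and Itgam) and 3 lower (Mos, Cyp19a1 and Ms4a1). Over all genes tested in that comparison, 14.5% were called higher and 14.2% lower, against which the marker counts are read. Mos was also lower in Dicer ΔMT/ΔMT, the RNAi mutant and the double mutant than in their controls. Ptprc was called higher in the double mutant. It had few counts and none in the controls, so only mutant samples carried it past the filter on low counts, and the call is no support for a difference. In the piRNA mutant Mos was at 146 CPM, within the controls (102 to 154 CPM). Itgam was at 0.725 to 1.41 CPM in Dicer SOM/SOM against 0 to 0.276 in wild type, Ptprc was at 0 to 0.44 CPM in the double mutant and at 0 in all controls, and Lyz2 reached 4.1 CPM in double mutant replicate 1 against at most 0.713 in the controls (not called). Counts at Gm42418, a gene over ribosomal RNA repeats, were higher in SOM/SOM replicates 1 and 3 (12876 and 17432 CPM) than in replicate 2 (4798 CPM) and the wild type samples (5236 to 5825 CPM), and in the paired-end run they ran from 294 to 5503 CPM within and across groups. The part of the markers in the results was not tested, and that of Gm42418 only by a fit with this gene as a covariate, which is given where it changed a call.

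In wild-type oocytes the silencing genes fell into a high, a middle and a very low range. Levels per length were compared as CPM per kilobase of exons. Resf1, a cofactor that binds SETDB1, was highest at 109 (99.3 to 114, n = 3), followed by Setdb1 at 78.2, Suv39h2 at 58.4, Atf7ip at 49.4 and Trim28 at 47.6. The wild type samples of a gene had coefficients of variation from 2.11% (Trim28) to 11.2% (Suv39h2), and 32.8% for Ehmt2. The 5 genes named first lay between the 93.5 and the 97.8 percentile of the 23151 genes tested, whose median was 2.1. Hells (10.9), Cbx5 (10.5), Morc3 (8.37) and Ehmt1 (7.03) formed the middle range. Ehmt2 stood at 0.144, the 13.4 percentile, and 48.8 times below its partner Ehmt1. Suv39h2 and Atf7ip, Atf7ip and Trim28, and Hells and Cbx5 were neighbours whose samples overlapped, while the other neighbours did not overlap.

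The order of all 10 genes was the same in the paired-end controls, which share no sample with the first run. Resf1 was at 116 CPM per kilobase there and Ehmt2 at 0.388 (0.3 to 0.528, n = 4), again the lowest by a factor of 16.7 from its neighbour. Trim28 stood lower relative to Atf7ip in this run (34.2 against 46.4), with samples that overlapped, and Cbx5 and Morc3 overlapped as well. With the longest transcript in place of the union of exons, Setdb1 moved from 78.2 to 64.5 in wild type and the other genes changed by less than the spread between samples.

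**Figure D1:**
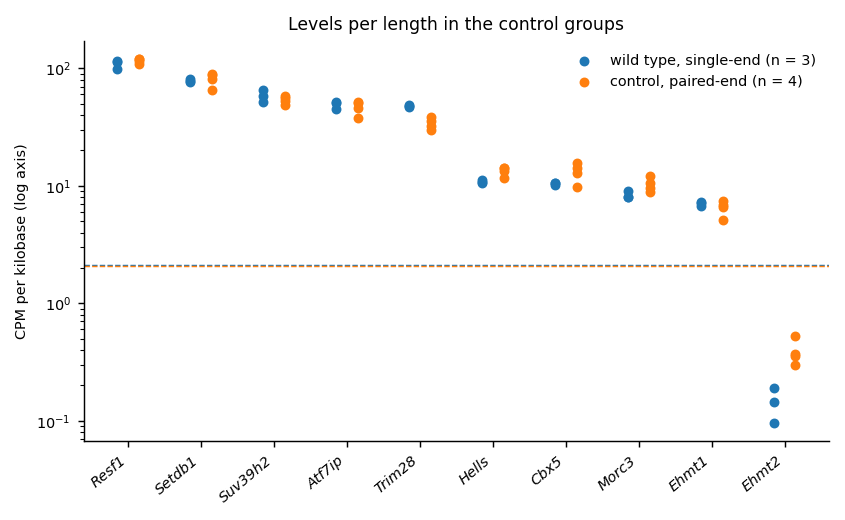
Levels of the 10 genes in CPM per kilobase of exons on a log axis, in the wild type samples of the single-end run (blue, n = 3) and the control samples of the paired-end run (orange, n = 4); each point is a sample and the dashed lines are the medians of all genes tested in each run. Resf1 is highest at 109 and 116, and Ehmt2 is lowest at 0.144 and 0.388.

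Ehmt2 encodes G9a, which with GLP (Ehmt1) writes mono- and dimethylated H3K9 in euchromatin, and Hells (LSH) and Morc3 are chromatin ATPases. In the GENCODE M15 annotation on GRCm38, Ehmt2 lies at chr17:34898469-34914051, Hells at chr19:38930915-38971051 and Morc3 at chr16:93832121-93876072, all on the plus strand, and no other annotated gene shares 10 or more exon bases with them. The promoters of these genes are shown because Hells and Morc3 fell in both runs and Ehmt2 rose in the single-end run. Each is the RefSeq window from 250 bases before to 50 bases after a transcript start on GRCm38.p6, of which all 10 genes have an entry, and capitals mark matches on either strand to 5 motifs: TATAAA (the TATA box), CCAAT (the site of NF-Y), GGGCGG (the GC box), CACGTG (a palindromic E box) and TTCCCGC (an E2F-type site, which can overlap the GC box). The start used lies 75 bases from the start in the count table for Hells, 0 for Morc3 and 5 for Ehmt2.
Hells promoter, chr19:38930740-38931039, + strand: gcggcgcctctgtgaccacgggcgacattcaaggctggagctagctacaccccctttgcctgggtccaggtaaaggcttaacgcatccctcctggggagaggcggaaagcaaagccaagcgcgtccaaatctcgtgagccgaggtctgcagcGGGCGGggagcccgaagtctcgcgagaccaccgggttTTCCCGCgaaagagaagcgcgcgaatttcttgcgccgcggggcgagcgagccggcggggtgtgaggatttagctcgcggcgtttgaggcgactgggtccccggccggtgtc
Morc3 promoter, chr16:93831871-93832170, + strand: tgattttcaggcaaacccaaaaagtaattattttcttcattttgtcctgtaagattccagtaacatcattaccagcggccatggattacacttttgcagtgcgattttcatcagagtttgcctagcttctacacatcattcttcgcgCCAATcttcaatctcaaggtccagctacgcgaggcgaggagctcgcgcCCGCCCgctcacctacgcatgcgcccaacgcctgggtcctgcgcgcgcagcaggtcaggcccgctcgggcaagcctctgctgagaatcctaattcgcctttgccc
Ehmt2 promoter, chr17:34898224-34898523, + strand: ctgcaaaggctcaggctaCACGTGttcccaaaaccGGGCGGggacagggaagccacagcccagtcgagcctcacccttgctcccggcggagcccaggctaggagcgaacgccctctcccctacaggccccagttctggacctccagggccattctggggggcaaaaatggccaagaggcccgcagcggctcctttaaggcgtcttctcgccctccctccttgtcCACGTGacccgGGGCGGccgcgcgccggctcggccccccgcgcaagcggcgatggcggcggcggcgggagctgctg

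The Hells window held 34 CpG dinucleotides, more than 92.2% of the 32544 distinct promoter windows, the Ehmt2 window 28 (more than 85.7%) and the Morc3 window 20 (more than 73.3%), against a median of 7. Hells and Morc3 had in common only the GC box GGGCGG, once each, which 35.9% of all windows hold. TTCCCGC, found in 4.63% of windows, was present once in Hells, and CCAAT, found in 37.4%, once in Morc3. Ehmt2 had CACGTG, found in 7.17% of windows, at 2 places and GGGCGG at 2. TATAAA (13.6% of windows) matched in none of the 3 sequences. A match is a description of the letters only.
When only the main oocyte promoter of Dicer was removed, 1 of the 10 genes rose and 2 fell relative to wild type. Dicer1 had a mean of 488 CPM in these oocytes, 47.8% of wild type, against 4.89% in Dicer SOM/SOM. All 10 members passed the filter on low counts and were tested with the other genes by edgeR's quasi-likelihood test. Calls were made at an adjusted p under 0.05. Among all genes tested in this comparison, 8.06% were called higher and 7.3% lower. The median absolute log2 fold change was 0.22 for the 10 genes and 0.3 for all genes tested.

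Ehmt2 was the gene that rose. Its level was 0.595, 0.396 and 0.785 CPM in the wild type samples, from 40, 23 and 48 counts, and 1.08, 1.93, 1.52 and 2.16 CPM in the Dicer ΔMT/ΔMT samples. All 4 mutant samples lay above all 3 wild type samples, and the log2 fold change was 1.50 ± 0.28 (SE, adjusted p = 0.00499). The call held in all 16 alternatives, with log2 fold changes from 1.30 to 1.75. The single Dicer ΔMT/WT sample, at 0.459 CPM, stayed within the wild type range.

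Ehmt1 and Morc3 fell by small amounts. Ehmt1 went from 42.5, 40.4 and 43.1 CPM in wild type to 33.8, 29.1, 31.9 and 36.4 CPM in Dicer ΔMT/ΔMT, without overlap (log2 fold change −0.36 ± 0.11, adjusted p = 0.0494). Morc3, which forms nuclear bodies and silences endogenous retroviruses, went from 37.7, 33.7 and 33.8 CPM to 29.4, 26.4, 24.7 and 28 CPM, also without overlap (−0.37 ± 0.11, adjusted p = 0.0444). Both adjusted p-values were close to the threshold: the Ehmt1 call was lost in 10 of 16 alternatives and the Morc3 call in 8. Leaving out any 1 of the wild type samples, or mutant replicate 1, 2 or 3, ended both calls, as did leaving out mutant replicate 4 for Morc3 and Dicer SOM/SOM replicate 2 for Ehmt1, with adjusted p up to 0.137 for Ehmt1 and 0.163 for Morc3 over all alternatives. With Gm42418 as a covariate Ehmt1 was not called either (−0.35, adjusted p = 0.0583).

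The remaining 7 genes did not pass the threshold in this comparison. Setdb1 was at 356, 376 and 361 CPM in wild type and 274, 298, 308 and 296 CPM in Dicer ΔMT/ΔMT, a log2 fold change of −0.31 (95% interval −0.58 to −0.04, adjusted p = 0.12). Trim28 (−0.18, adjusted p = 0.0828) likewise did not overlap between groups. Cbx5, which encodes HP1α, was at 92, 94.9 and 95.9 CPM in wild type and 112, 109, 118 and 112 CPM in the mutant, without overlap (0.26, adjusted p = 0.078). When the fit was restricted to these 2 groups, these 3 genes were called as well, for 6 calls in all. More of the other silencing genes described below were called in that fit too, and its share of all genes was not counted. Hells had a log2 fold change of −0.18, and Atf7ip, Resf1 and Suv39h2 lay between −0.13 and −0.09.

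In Dicer SOM/SOM oocytes, 2 of the 10 genes rose and 3 fell relative to wild type, where 14.5% of all genes tested were called higher and 14.2% lower. The median absolute log2 fold change was 0.29 for the 10 genes and 0.42 for all genes. Ehmt2 and Trim28 were higher, and Hells, Suv39h2 and Morc3 were lower. Apart from Ehmt2, no change exceeded 0.46 on the log2 scale.

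Ehmt2 reached 3.89, 3.46 and 4.21 CPM, from 188, 220 and 29 counts, in the Dicer SOM/SOM samples. Every one of these values was above those of the wild type and of the Dicer ΔMT/ΔMT samples, and the spread between the 3 samples was small (SD 0.377 around a mean of 3.85). The log2 fold change against wild type was 2.68 ± 0.30 (95% interval 2.01 to 3.35, adjusted p = 8.9e-05), a 6.4-fold difference, which was larger in size than that of 96.8% of genes tested. It held in all 16 alternatives (2.46 to 2.92). The mean of Ehmt1 in the same samples was 42.7 CPM.

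Trim28 was at 156, 151 and 157 CPM in wild type and 179, 193 and 187 CPM in Dicer SOM/SOM, without overlap. The log2 fold change was 0.27 ± 0.07 (adjusted p = 0.0144), and 4 of 16 alternatives lost the call, among them leaving out wild type replicate 1 or 2 (adjusted p up to 0.0793). In Dicer ΔMT/ΔMT the same gene was at 130.4, 139, 138 and 137 CPM, below all wild type samples. The direct comparison of Dicer SOM/SOM with Dicer ΔMT/ΔMT gave the larger value, 0.46 ± 0.07 (adjusted p = 0.00234), which held in all 16 alternatives.

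Hells encodes a remodeller of the SNF2 family that DNA methylation of repeats depends on. Its levels were 63.5, 66.2 and 61.8 CPM in wild type, 60, 58.3, 54.5 and 53.4 CPM in Dicer ΔMT/ΔMT, with 53, 44.7 and 40.9 CPM in the Dicer SOM/SOM samples. The 3 groups did not overlap, with Dicer ΔMT/ΔMT between the other two. Only the fall from wild type to Dicer SOM/SOM passed the threshold, with −0.46 ± 0.10 (adjusted p = 0.00745), and it did so in all 16 alternatives (−0.57 to −0.39).

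Suv39h2, a methyltransferase that trimethylates H3K9 at pericentromeric repeats, was at 254, 281 and 224 CPM in wild type and 199.7, 202 and 159.6 CPM in Dicer SOM/SOM. The groups did not overlap and the log2 fold change was −0.43 ± 0.11 (adjusted p = 0.0151). Morc3 was at 30.9, 24 and 24.7 CPM in Dicer SOM/SOM, below all wild type samples (−0.40 ± 0.12, adjusted p = 0.0301). With Gm42418 as a covariate neither gene was called, and only Ehmt2, Hells and Trim28 were. The Suv39h2 call was lost in 3 of 16 alternatives (adjusted p up to 0.117, including without wild type replicate 2) and the Morc3 call in 7 (up to 0.101), including without each of the wild type samples and without Dicer SOM/SOM replicate 2 or 3. Suv39h2 shares 357 bases of exon sequence with Dclre1c on the other strand and the counting did not use strand, so reads there cannot be assigned.

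Setdb1 and its partners showed no call in Dicer SOM/SOM. Setdb1 was at 361, 354 and 239 CPM, where the low value is the library with the fewest counts (replicate 3), and its log2 fold change was −0.19 (95% interval −0.49 to 0.10). Atf7ip, which protects SETDB1 in the nucleus, had −0.16 (−0.39 to 0.07). Resf1, at 529, 587 and 518 CPM against 702, 700.0 and 609 in wild type, did not overlap with wild type and had −0.30 (−0.56 to −0.04, adjusted p = 0.0815). Ehmt1 (0.03) and Cbx5 (0.14) were close to 0. Setdb1 shares 324 exon bases with Cers2 and Gm37500 on the other strand.

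Between the Dicer mutants, Ehmt2 and Trim28 were called higher in Dicer SOM/SOM and none of the 10 genes was called lower, at background shares of 4.03% and 3.32% of all genes. Ehmt2 had a log2 difference of 1.17 ± 0.26 (adjusted p = 0.0221), and 3 of 16 alternatives lost that call (adjusted p up to 0.098): the Gm42418 covariate, and leaving out Dicer ΔMT/ΔMT replicate 3 or Dicer SOM/SOM replicate 1. Ehmt1 (0.39, adjusted p = 0.0576) and Suv39h2 (−0.34, adjusted p = 0.08) missed the threshold in edgeR. They passed it in DESeq2, for 4 calls there (share of all genes not counted). Ehmt1 was thus lower in Dicer ΔMT/ΔMT than in both other groups by point estimate, and only the comparison with wild type passed.

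**Figure D2:**
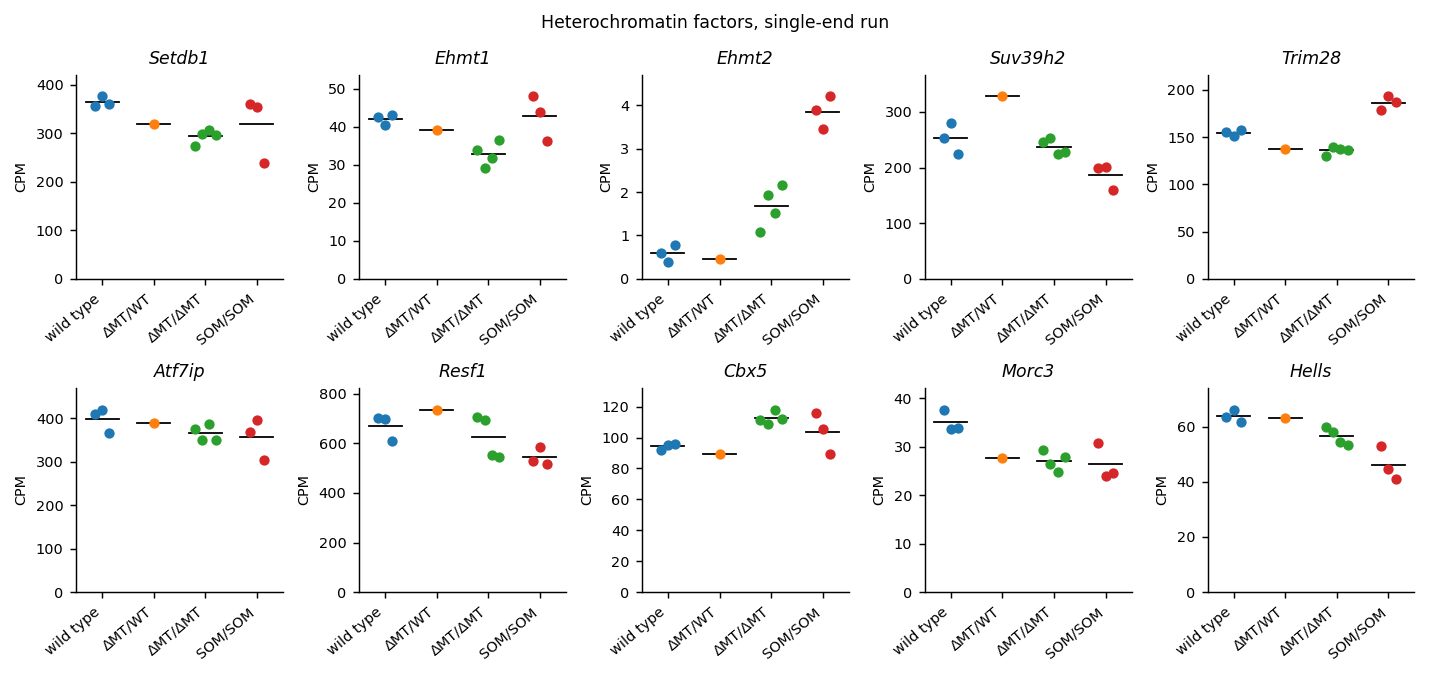
CPM of the 10 genes in each sample of the single-end run, by Dicer genotype; each point is a sample, the black line is the mean of the group, and every axis starts at 0. Ehmt2 rises from 0.396 to 0.785 CPM in wild type to 3.46 to 4.21 CPM in SOM/SOM with ΔMT/ΔMT between them, and the Hells values are lower in the same order.

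In the paired-end run, loss of RNAi alone gave no call among the 10 genes, where 7.07% of all genes tested were called higher and 3.64% lower in the RNAi mutant. Both RNAi mutant samples came from younger animals and the controls from younger and older ones, so age is not balanced in this comparison. edgeR found 1 of the 10 with an unadjusted p under 0.05, and DESeq2 called that same gene, Morc3. Morc3 was at 31.6 and 30 CPM in the RNAi mutant and 39.9, 44.2, 37.3 and 50.4 CPM in the controls. Both mutant samples lay below all controls, with a log2 fold change of −0.48 ± 0.17 (edgeR adjusted p = 0.0874, DESeq2 adjusted p = 0.0388).

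Ehmt2 was not called in this run although its Dicer SOM alleles are those of the single-end run. The RNAi mutant samples held 1.9 and 2.2 CPM and the controls 1.45, 1.23, 1.53 and 2.17 CPM, so the groups overlapped and the log2 fold change was 0.37 (95% interval −0.43 to 1.16). The controls of this run, which carry 1 SOM allele and 1 DAH allele, had a mean of 1.6 CPM against 0.592 CPM in the wild type of the other run. One fit over both runs gave a difference of 2.28 ± 0.50 between the Dicer SOM/SOM effects of the runs (95% interval 1.24 to 3.31), which did not pass after adjustment over 24824 genes (adjusted p = 0.127). Genotype of the controls, run and read type cannot be told apart in that difference.

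Several members had estimates near 0 in the RNAi mutant. Setdb1 (0.01), Suv39h2 (0.02), Trim28 (−0.02) and Atf7ip (−0.01) had 95% intervals between −0.34 and 0.32 on the log2 scale. Differences inside these intervals are not excluded by the data, and larger ones can also miss the threshold, as that of Morc3 did. Resf1 (−0.12), Hells (−0.17), Ehmt1 (−0.23) and Cbx5 (0.22) had point estimates further from 0 and samples that overlapped with the controls. The median absolute log2 fold change of the 10 genes was 0.14, against 0.38 for all genes tested.

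When both pathways were lost, Hells and Morc3 fell and none of the 10 genes rose. The background in this comparison was 12.3% higher and 8.84% lower. Hells was at 50.3, 57.4, 49 and 66.9 CPM in the double mutant and 68.6, 83.7, 78.9 and 82.9 CPM in the controls. The highest mutant sample was just below the lowest control, and the log2 fold change was −0.49 ± 0.13 (95% interval −0.78 to −0.20, adjusted p = 0.0178), to 0.712 of the control level.

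Morc3 was at 32.4, 33.4, 29 and 28.3 CPM in the double mutant, again below all 4 controls. Its log2 fold change was −0.48 ± 0.13 (adjusted p = 0.0197), beside −0.48 in the RNAi mutant, which was compared with the same controls. Each call was lost in 5 of 20 alternatives, among them younger and older animals alone (2 samples against 2). A block on the sample number in the labels, which is not known to pair samples, also ended both calls. So did leaving out double mutant replicate 3 or control replicate 4 for Morc3, and double mutant replicate 1 or 3 for Hells. Adjusted p-values over these alternatives went up to 0.289 for Morc3 and 0.195 for Hells, and the log2 fold changes stayed between −0.61 and −0.35 for Morc3 and between −0.59 and −0.42 for Hells.

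Hells and Morc3 were the members called in both Dicer SOM/SOM against wild type and double mutant against control, which share no samples. This was 40% of the 5 members called in the first comparison and 100% of the 2 called in the second. Over all genes tested in both runs, 48.3% of the genes called in the first comparison and 70.2% of those called in the second were called in the same direction in both. The share for the members is read against these values, and 2 genes are too few to set it apart from them.

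The other members did not pass the threshold in the double mutant. Resf1 was at 612, 548, 671 and 630.0 CPM, below all 4 controls at 731, 738, 709 and 673 CPM, with a log2 fold change of −0.21 (95% interval −0.44 to 0.01, adjusted p = 0.176). Trim28 (0.22, −0.04 to 0.48), Cbx5 (0.22, −0.09 to 0.53) and Atf7ip (0.15, −0.12 to 0.42) had positive estimates and overlapping samples. Setdb1 (0.01), Suv39h2 (−0.02) and Ehmt1 (−0.05) were near 0, with intervals between −0.37 and 0.26.

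Ehmt2 was at 3.59 and 2.46 CPM in the older double mutants and at 1.69 and 1.63 CPM in the younger ones. The older controls held 1.45 and 1.23 CPM and the younger controls 1.53 and 2.17 CPM. Its overall log2 fold change of 0.56 (95% interval −0.09 to 1.21, adjusted p = 0.222) was thus 1.16 in older and −0.15 in younger animals, from 1 fit. The difference between the ages, 1.31 ± 0.50, had an unadjusted p of 0.0235 from edgeR's model and an adjusted p of 0.795 over all genes. Without double mutant replicate 1 the overall value was 0.28.

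The Mili mutation on top of the loss of RNAi moved none of the 10 genes past the threshold. edgeR found 0 of 10 with an unadjusted p under 0.05 in double mutant against RNAi mutant and DESeq2 called 0, and among all genes 0.31% were called higher and 0.00476% lower. The largest estimates were those of Hells, −0.33 (95% interval −0.67 to 0.02), and Trim28, 0.24 (−0.08 to 0.56), whose 4 double mutant samples lay above both RNAi mutant samples. Setdb1, Cbx5 and Morc3 had log2 differences that rounded to 0, with 95% intervals between −0.38 and 0.38. With 2 RNAi mutant samples, differences inside these intervals are not excluded by the data, and larger ones can also miss the threshold. The double mutants include older animals and the RNAi mutants do not, so age is not balanced in this comparison.

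The piRNA mutant is 1 sample and was set beside the controls by its values. A gene counted as outside where its log2 CPM lay beyond all 4 controls and at least 1 unit from their mean, which 7.94% of genes did and none of the 10 members did. Ehmt2 came nearest, with 0.808 CPM from 29 counts, 0.90 log2 units below the control mean. Morc3 (36.7 CPM), Resf1 (625 CPM) and Suv39h2 (255 CPM) lay just outside the control range, by 0.22 and 0.19 units below and 0.13 units above the mean. The share of all genes outside the control range alone was not counted, so these values are a description only. Hells, at 80.3 CPM, was within the control range. The test of whether the Mili mutation acted differently with and without RNAi, which rests on this sample and takes its spread to be that of the other groups, called none of the members and 0 of 20989 genes in edgeR; 0 of the members and 1023 genes had an unadjusted p under 0.05.

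**Figure D3:**
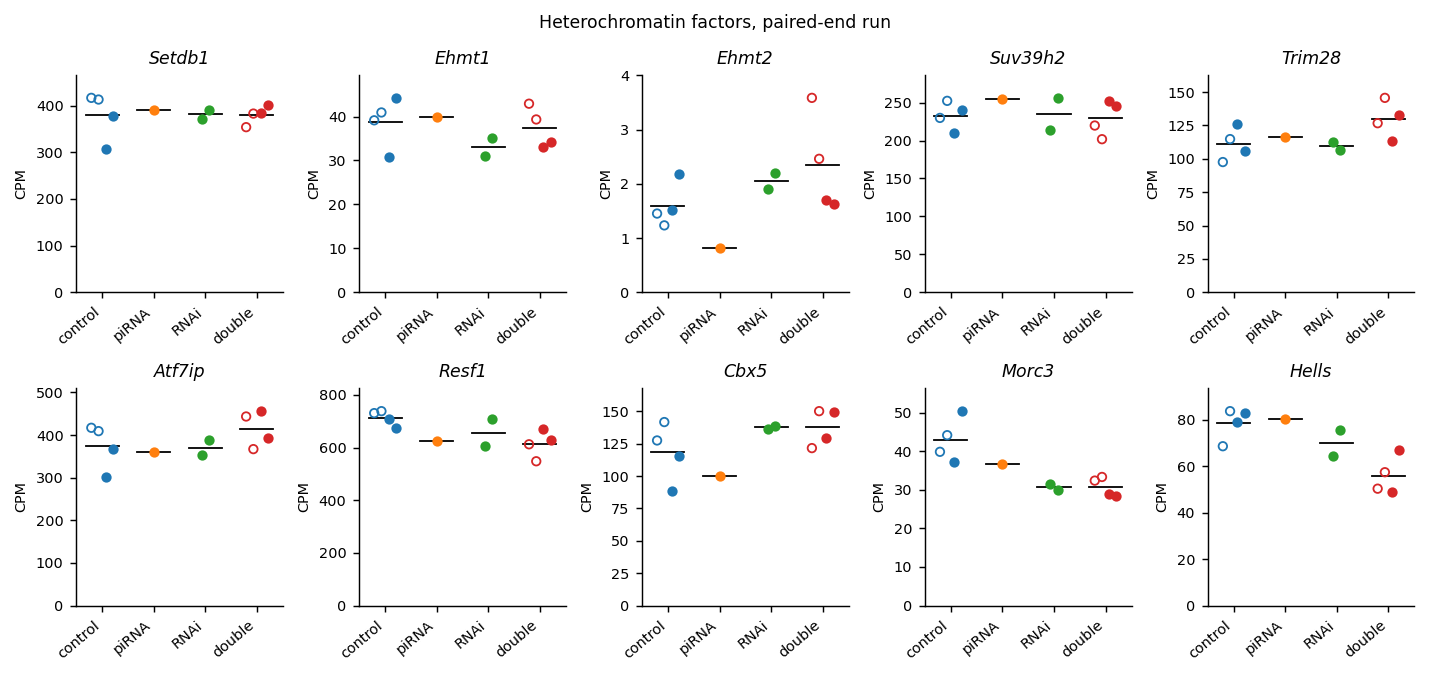
CPM of the 10 genes in each sample of the paired-end run; control, piRNA, RNAi and double stand for the groups, open points are animals of 35 weeks or more and filled points younger ones, the black line is the mean and every axis starts at 0. Morc3 is lower in the RNAi and double mutants than in all controls, Hells is lower in the double mutants, and the Ehmt2 values of the double mutants split by age.

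**Figure D4:**
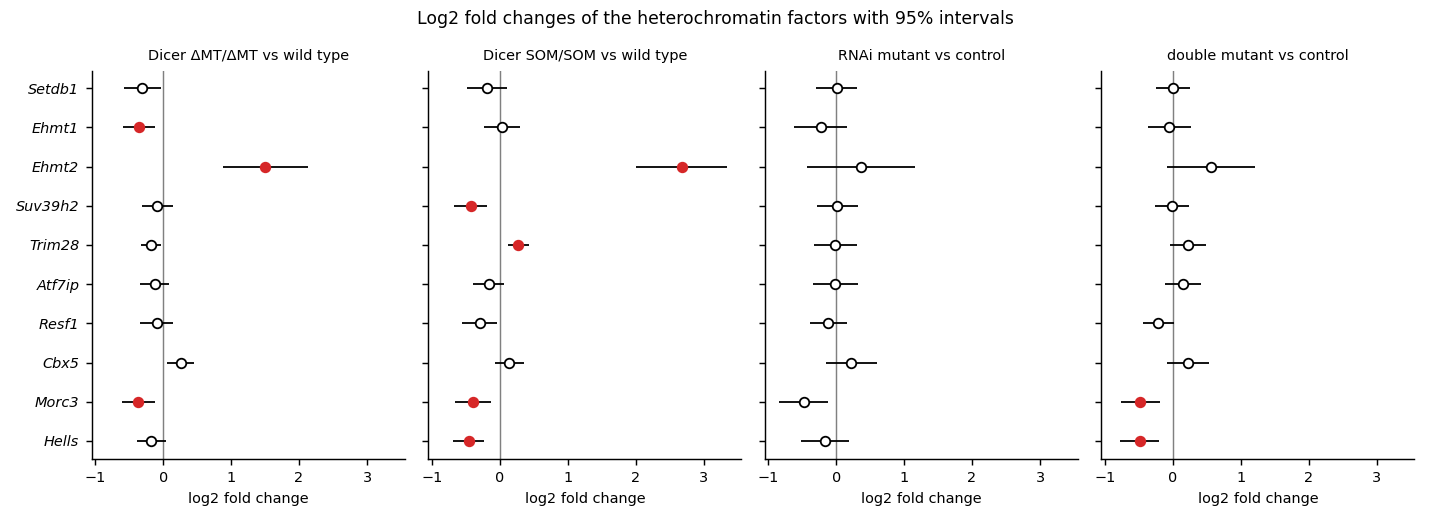
Log2 fold changes of the 10 genes (points) with 95% intervals (lines) in 4 comparisons; red points passed an adjusted p under 0.05 in edgeR. Ehmt2 stands apart at 1.50 and 2.68 in the single-end comparisons, and at 0.37 and 0.56 in the paired-end ones its intervals include 0; the estimates of the other genes lie between −0.49 and 0.27.

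Other silencing genes, grouped by role in a list of 45, gave a setting for the 10 members. Of these, 44 were tested, and Morc2b was not. In Dicer ΔMT/ΔMT against wild type 4 were called higher and 3 lower, beside 8.06% and 7.3% of all genes tested. In Dicer SOM/SOM against wild type 7 were higher and 5 lower, beside 14.5% and 14.2%. In the RNAi mutant 3 were higher and 0 lower, beside 7.07% and 3.64%. In the double mutant 6 were higher and 3 lower, beside 12.3% and 8.84%. Between Dicer SOM/SOM and Dicer ΔMT/ΔMT 2 were higher (4.03% of all genes). Between double and RNAi mutant none was called. The counts of the list are read against these shares. The median absolute log2 fold change in Dicer SOM/SOM was 0.28 for the list, against 0.42 for all genes tested.

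Pphln1 encodes periphilin, a subunit of the HUSH complex that works with SETDB1. It was at 237, 232 and 231 CPM in wild type, 617, 559, 504 and 544 CPM in Dicer ΔMT/ΔMT, and the Dicer SOM/SOM samples held 596, 655 and 504 CPM. Both mutants lay above wild type without overlap (log2 fold changes 1.25 and 1.33, adjusted p = 3.39e-05 and 7.54e-06). The gene rose also in the RNAi mutant (1.22, adjusted p = 3.9e-05) and the double mutant (1.29, adjusted p = 3.05e-06). In the piRNA mutant it was at 316 CPM, within the control values of 311, 361, 321 and 336 CPM.

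Zfp809, a KRAB zinc finger gene whose protein recruits TRIM28 to murine leukaemia virus sequences, followed the same pattern. It went from 5.19, 8.72 and 6.38 CPM in wild type to 21.8, 23.7, 18.3 and 19.5 CPM in Dicer ΔMT/ΔMT (1.62, adjusted p = 0.000213) and 16.6, 22 and 18.9 CPM in Dicer SOM/SOM (1.51, adjusted p = 0.000203). In the paired-end run the log2 fold change was 1.78 in the RNAi mutant and 1.80 in the double mutant (adjusted p = 2.41e-05 and 3.27e-06), and the piRNA mutant, at 8.27 CPM, was within the controls (6.5 to 8.97 CPM). Between Dicer SOM/SOM and Dicer ΔMT/ΔMT the log2 difference was 0.07 for Pphln1 (95% interval −0.14 to 0.29) and −0.12 for Zfp809 (−0.51 to 0.27).

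Hdac1, a histone deacetylase of the NuRD complex, had means of 5.38 CPM in wild type, 12.3 CPM in Dicer ΔMT/ΔMT oocytes and 33.5 CPM in Dicer SOM/SOM oocytes, both higher than wild type (1.19 and 2.64, adjusted p = 0.00012 and 4.29e-07), with a log2 difference of 1.45 between the mutants (adjusted p = 4.8e-05). It rose from 11.1 CPM in the controls to 62 CPM in the RNAi mutant and 55.6 CPM in the double mutant (2.33, adjusted p = 1.02e-06). Its transcript has 2 close copies, AC125456.1 and Gm10093, and reads with several places in the genome were divided among them, so its level is uncertain. Kdm1b, a histone demethylase of growing oocytes, rose by 0.58 in Dicer SOM/SOM and 0.61 in the double mutant (adjusted p = 0.019 and 0.00787). Its exons share 498 bases with Dek on the other strand.

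Cdca7 encodes a partner that brings HELLS to chromatin. It was at 4.16, 4.39 and 6.28 CPM in wild type and 2.73, 2.45 and 3.77 CPM in Dicer SOM/SOM (−0.80 ± 0.25, adjusted p = 0.0361), and it fell from 5.85, 5.73, 7.55 and 7.65 CPM in the controls to 2.64, 2.94, 2.55 and 2.81 CPM in the double mutant (−1.29 ± 0.19, adjusted p = 0.000303). Neither pair of groups overlapped. The RNAi mutant samples, at 3.63 and 4.88 CPM, lay between them (−0.65, adjusted p = 0.11), and double mutant against RNAi mutant gave −0.64 (adjusted p = 0.708). Its relative Cdca7l rose in the double mutant (0.40, adjusted p = 0.0323). Cdca7 thus had the direction of Hells in both runs.

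Setdb2, an H3K9 methyltransferase related to Setdb1, fell by 0.56 on the log2 scale in Dicer SOM/SOM (adjusted p = 0.00579) and by 0.68 in the double mutant (adjusted p = 0.00964), without overlap in either. Suv39h1, a gene that the study lists as a potential siRNA target, had −0.27 in Dicer SOM/SOM (adjusted p = 0.11) and 0.17 in the double mutant (adjusted p = 0.379). Gm6871, a KRAB zinc finger gene that the study discusses, had −0.51 and 0.48 (adjusted p = 0.149 and 0.567) at 0.311 to 2.48 CPM in all samples, and it shares 324 exon bases with Gm17217.

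The rest of the named genes were called in 1 run. Morc4 had a fitted log2 fold change of 4.85 in Dicer SOM/SOM (adjusted p = 0.0252), with 0, 0 and 0.115 CPM in wild type and 0.0207, 2.75 and 0.29 CPM in the mutant, so the mutant mean rests on replicate 2. Kdm4d, an H3K9 demethylase, rose by 1.87 from 0.208, 0.31 and 0.54 to 1.49, 1.16 and 1.16 CPM (adjusted p = 0.00824) and had −0.97 in the double mutant (adjusted p = 0.309). Cbx3, a further HP1 gene, fell by 0.50 in Dicer SOM/SOM (adjusted p = 0.0226) and had −0.19 in the double mutant (adjusted p = 0.528). Hira, a chaperone of histone H3.3, fell by 0.63 in the double mutant (adjusted p = 0.0335). Hira shares 2778 exon bases with Gm28539.

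Of the 44 genes, 6 were called in the same direction in Dicer SOM/SOM against wild type and double mutant against control: Hdac1, Pphln1, Zfp809 and Kdm1b higher, and Cdca7 and Setdb2 lower. They made up 50% of the 12 called in the first comparison and 66.7% of the 9 called in the second. Over all genes tested in both runs the shares were 48.3% and 70.2%, as given above.

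**Figure D5:**
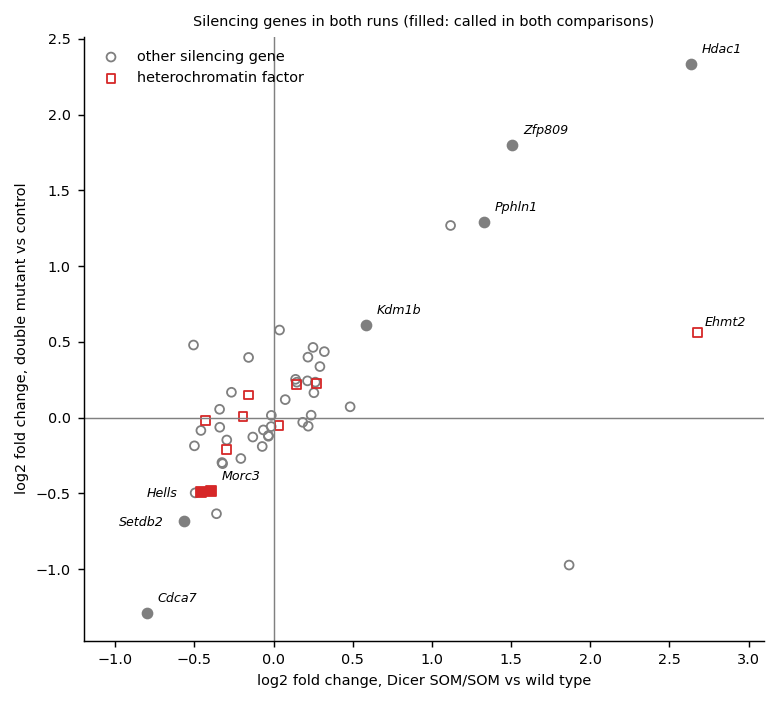
Log2 fold change in Dicer SOM/SOM against wild type (x axis) and in double mutant against control (y axis) for the 10 heterochromatin factors (red squares) and the other silencing genes (grey circles), without Morc4, which lies at 4.85 and 0.40; filled marks passed an adjusted p under 0.05 in both. Hells and Morc3 lie together in the lower left, and Ehmt2, at 2.68 and 0.56, lies apart from Hdac1, Zfp809 and Pphln1, which are high on both axes.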

How the data were processed

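The authors mapped total RNA reads of 22 GV oocyte samples with STAR 2.5.3a on mm10/GRCm38, kept reads with many places in the genome, and counted them without strand on GENCODE M15 with featureCounts, giving a fraction of a read to each place and each overlapping gene. The deposited table therefore holds estimated counts, which were rounded to whole numbers here. The table holds 52636 genes, and symbols came from GENCODE M21. A deposited table of retrotransposon groups was not used.

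Each run was fitted apart in edgeR 4.0.16 (R 4.3.3) with TMM factors, filterByExpr (minimum count 10, minimum total 15, on groups of 2 or more samples). Genes were tested by edgeR's quasi-likelihood method, and p-values were adjusted by Benjamini-Hochberg over all genes tested (23151 in the single-end run, 20989 in the paired-end run). The piRNA mutant entered the paired-end fit, and the heterozygote for ΔMT entered no fit. Standard errors are those of the log2 fold change, and 95% intervals use the t distribution of that test. CPM used TMM library sizes. The test was tried on simulated counts with 200 genes changed by 1.5 on the log2 scale. It recovered 194 in Dicer SOM/SOM against wild type (19307 genes) and 200 in double mutant against control (16387 genes). Of its calls, 3.96% and 4.31% were of unchanged genes. Smaller changes, such as those of the members other than Ehmt2, were not simulated. The simulated spread between samples followed a set formula and was not estimated from these data. Genes with few counts were left out, and far fewer genes were changed than were called in the data. The simulated rates therefore need not hold for these libraries.

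Shared reads were looked for as exon overlaps of at least 10 bases and as transcripts with at least 95% identity over at least 50% of their length. Named genes were the 10 members, Suv39h1, Gm6871, Dicer1, Piwil2 and, from the list of 45, the 3 largest rises and 3 largest falls among genes called with a mean of at least 1 CPM in Dicer SOM/SOM against wild type and in double mutant against control. Kdm1b, Cdca7l and the genes whose exons overlap were named after their values were seen. The members and lists were chosen with earlier results of these data known. The fit over both runs and the separate age effects were added after seeing the data. Alternatives were DESeq2 1.42.0, other size factors, no filter, fewer samples, age, Gm42418 as a covariate and a replicate block.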

Additional observations from a re-analysis of the deposited data

Results flagged for a closer look

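For Setdb1 and Suv39h2, the double mutants of each age lay wholly on one side of their controls, below in older and above in younger animals. Setdb1 was lower in the older double mutants (354 and 383 CPM against 417 and 413 CPM) and higher in the younger ones (384 and 402 CPM against 308 and 379 CPM), and the log2 difference between the effects was −0.37 ± 0.21 (adjusted p = 0.862 in edgeR). Suv39h2 was lower in the older (219.7 and 202 CPM against 229.8 and 252 CPM) and higher in the younger animals (253 and 245 CPM against 209 and 240.0 CPM), with a difference of −0.34 ± 0.22 (adjusted p = 0.872). Each age has 2 samples a group, so few that full separation can easily arise without an effect, and neither difference passed the test. The 2 genes were picked from the members for this pattern. How many of all genes show the same pattern was not counted, so these values are a description only.

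The single Dicer ΔMT/WT sample, which enters no comparison, lay above all 3 wild type samples for Resf1 (736 CPM, against at most 702 CPM) and for Suv39h2 (328 CPM, against at most 281 CPM). It lay below all 3 wild type samples for Setdb1 (318 CPM, against at least 356 CPM), Trim28 (137 against at least 151 CPM), Ehmt1 (39 against at least 40.4 CPM), Cbx5 (89.1 against at least 92 CPM) and Morc3 (27.7 against at least 33.7 CPM), and within their range for Atf7ip, Hells and Ehmt2. These differences of 1 sample were not tested. For how many of all genes it lay outside the wild type range was not counted, so the values are a description only.

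In the groups of 4 samples, no single sample of any member stood far enough from the others to be set apart by Dixon's test at the 95% level.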

How the results depend on the processing

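None of the called members reversed under any alternative, and 155 of the 200 alternative values of called members passed the threshold. Of all 1060 alternative values of the members, 74 had another sign than the main value, all of genes that were not called, and none of these values passed (adjusted p at least 0.564). Members called in Dicer ΔMT/ΔMT against wild type numbered 3 in the main fit, 1 without the filter on low counts and 6 with only the compared groups (13 of the other silencing genes, against 7); leaving out 1 sample gave 1 to 6 members and 4 to 10 of the others. For Dicer SOM/SOM against wild type the 5 members became 2 with only the compared groups (7 of the others, against 12) and 3 with Gm42418 as a covariate, and 2 to 5 (7 to 13 of the others) with 1 sample left out. Between the Dicer mutants the 2 members became 4 in DESeq2 and 1 with Gm42418 (1 to 4 with 1 sample left out), and the 2 other genes became 1 without the filter and 1 under the replicate block (1 to 4). In the RNAi mutant 0 members became 1 in DESeq2, and 0 to 1 with 1 sample left out. In the double mutant the 2 members, Hells and Morc3, became 0 under the replicate block, 0 in younger and 0 in older animals only, and 0 to 2 with 1 sample left out, and the 9 other genes became 5 in older animals. For the lone piRNA mutant, 0 members outside the controls became 1 (Ehmt2) with a minimum of 0.5 log2 units, 1 with younger controls only, and 0 to 1 with 1 control left out. The cause of these changes was not tested, beyond fewer samples where samples were left out. Shares of all genes called were not counted under the alternatives. The sample numbers in the labels are not known to pair samples: deviations of same-numbered samples correlated from −0.185 to 0.315 (0.315, 0.0909 and 0.298 for double mutants and controls), and of 6 double mutant and control samples with a partner 4 correlated best with it, against 2 to 3 of 6 in the single-end run. The block changed no other count by more than 1.5 times. Ehmt2, at 23 to 48 counts in wild type, and SOM/SOM replicate 3, with 6467844 counts, had few counts.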
